A study of Homo sapiens with 6 samples.

Results

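A set of 9 genes that encode the sterol sensing machinery of the SREBP pathway and proteins that move cholesterol inside the cell was followed in MDA-MB-231 cells, a human triple-negative breast cancer line, after 24 h with CTI-2 and without it. The genes are INSIG1, INSIG2, SCAP, SREBF1, SREBF2, MBTPS1, MBTPS2, STARD4 and NPC1. They were chosen by name after the CTI-2 minus control fold changes of this comparison had been seen, the lower level of INSIG1 among them, and taken by symbol from a table of 16362 genes, and all 9 were found and had enough reads to be tested. There were 3 CTI-2 libraries, whose labelled agent is CTI-2, and 3 control libraries, whose labelled agent is none. CTI-2 is a code name, and the labels say nothing of its dose, of a vehicle or of separate cultures behind the libraries, so the spread between libraries may be technical. The libraries were made from total RNA with an Oxford Nanopore cDNA-PCR kit, which reads whole cDNA molecules. Levels are given in CPM, read counts scaled to 1000000 counts per library. The fold changes and adjusted p-values of the 9 genes therefore describe where each gene stands in the fit across all genes, and nothing is supported with them.

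SREBPs are transcription factors made as precursors in the membrane of the endoplasmic reticulum. SCAP is their escort: when membrane sterol is low it carries the precursor to the Golgi, where site-1 protease and then site-2 protease, encoded by MBTPS1 and MBTPS2, release the active factor. INSIG proteins bind SCAP when sterol is high and hold it in the endoplasmic reticulum. INSIG1 is itself a classical SREBP target gene, so that its transcript is widely read as an output of the pathway as well as one of its brakes. SREBF1 encodes SREBP-1, associated mainly with fatty acid synthesis, and SREBF2 encodes SREBP-2, associated mainly with sterol synthesis and LDL uptake. STARD4 encodes a soluble carrier that moves cholesterol between membranes, and NPC1 a membrane protein that exports LDL-derived cholesterol from late endosomes and lysosomes.

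Total counts were 2208261 to 3153469 in the CTI-2 libraries and 2349758 to 3929532 in the control libraries, so that 3 counts correspond to 0.763 to 1.36 CPM. Each of the 9 genes had 29 to 162 counts in every library. Of 6 markers commonly associated with mesenchymal lines (VIM, CDH2, ZEB1, CD44, CAV1 and AXL) all were detected, at a summed 299 to 318 CPM in CTI-2 libraries and 243 to 280 CPM in control libraries. CD44 alone stood at 131 to 188 CPM and CAV1 at 57.0 to 83.4 CPM, while VIM stood at only 14.5 to 18.9 CPM and AXL at 2.98 to 7.41 CPM. The 8 luminal and epithelial markers summed to 97.7 to 109 CPM in CTI-2 libraries and 103 to 109 CPM in control libraries. Of these, ESR1, CDH1 and GATA3 had at most 2 counts in any library, FOXA1 had 3 to 9 counts and PGR was not among the counted genes. ERBB2 (4.98 to 11.1 CPM), EPCAM (6.98 to 10.6 CPM) and KRT8 (79.3 to 88.6 CPM) were detected. Immune markers were at or near 0, while of the fibroblast markers COL1A1 and PDGFRB were detected and COL1A2 and COL3A1 had at most 3 counts. Control 2 lay nearer to the CTI-2 libraries than the other controls did, at -8.16 on the first principal component of log2 CPM, where CTI-2 libraries lay at 13.7 to 25.1 and the other controls at -23.1 each. Its part in the results was not tested beyond the values without it, which are given where they change a call of the 9 genes.

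The promoters of both INSIG genes and both SREBF genes are shown first, because these 4 genes form pairs of related proteins, and in the INSIG pair the split of reads differed between the groups. The sequences are from RefSeq on GRCh38.p14, written 5′ to 3′ on the gene's strand, from 250 bases before to 50 bases after the annotated start. Capitals mark matches, on either strand, to TCACNCCAC (a form of the sterol regulatory element bound by SREBPs), CCAAT (bound by NF-Y) or CACGTG (an E-box).
INSIG1, chr7:155297628-155297927, plus strand: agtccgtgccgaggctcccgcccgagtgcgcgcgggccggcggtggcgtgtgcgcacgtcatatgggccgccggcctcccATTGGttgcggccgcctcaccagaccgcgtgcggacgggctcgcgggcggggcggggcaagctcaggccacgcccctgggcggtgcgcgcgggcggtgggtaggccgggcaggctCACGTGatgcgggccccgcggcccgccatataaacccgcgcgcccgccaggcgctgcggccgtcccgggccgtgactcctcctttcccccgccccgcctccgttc
INSIG2, chr2:118088221-118088520, plus strand: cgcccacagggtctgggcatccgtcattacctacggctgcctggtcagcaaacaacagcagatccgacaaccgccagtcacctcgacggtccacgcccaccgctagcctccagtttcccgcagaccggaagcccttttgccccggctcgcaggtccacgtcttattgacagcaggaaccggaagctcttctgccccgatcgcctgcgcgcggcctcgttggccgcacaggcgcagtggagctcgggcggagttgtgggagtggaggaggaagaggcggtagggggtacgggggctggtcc
SREBF1, chr17:17836937-17837236, minus strand: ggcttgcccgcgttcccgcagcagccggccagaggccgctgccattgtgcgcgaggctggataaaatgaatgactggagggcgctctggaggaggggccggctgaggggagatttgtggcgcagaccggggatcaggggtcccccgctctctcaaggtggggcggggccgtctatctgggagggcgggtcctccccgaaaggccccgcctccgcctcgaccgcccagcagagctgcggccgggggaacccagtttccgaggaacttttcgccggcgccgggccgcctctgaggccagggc
SREBF2, chr22:41832855-41833154, plus strand: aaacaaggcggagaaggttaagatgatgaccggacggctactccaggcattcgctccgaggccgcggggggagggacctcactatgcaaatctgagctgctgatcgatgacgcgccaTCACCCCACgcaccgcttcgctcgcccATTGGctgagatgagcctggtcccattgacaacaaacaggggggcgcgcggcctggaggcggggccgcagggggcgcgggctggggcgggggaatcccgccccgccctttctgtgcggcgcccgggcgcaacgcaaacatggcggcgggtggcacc

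The window of INSIG1 held 1 CCAAT on the minus strand, starting 170 bases before the start site, and 1 CACGTG, starting 55 bases before it. It also held 6 copies of the GC box GGGCGG, counted on both strands and not capitalised. The window of INSIG2 held none of the capitalised motifs and 1 GC box. SREBF2 was the only member with a match to TCACNCCAC, starting 133 bases before the start site, and had 1 CCAAT at 106 bases before it. Of the searched motifs the window of SREBF1 held only GC boxes, 3 of them. Only 1 window, at 1 annotated start, was searched per gene, and any other start of a gene was not. Among the other members, STARD4 had 2 CCAAT, SCAP had 1 CACGTG, and the windows of MBTPS1, MBTPS2 and NPC1 held none of the capitalised motifs. In all 35116 promoters of the table, TCACNCCAC was found in 1.13%, CCAAT in 34.6%, CACGTG in 7.26% and GGGCGG in 45.0%. Of the 9 members these motifs were found in 1, 3, 2 and 7, in the same order. A match is a run of letters and not a shown binding site, and no match says only that the letters are not in this window. Distances are from the RefSeq start, which can differ from the GENCODE gene start. For INSIG1, SCAP, SREBF1, SREBF2, STARD4 and NPC1 the RefSeq start lies inside the GENCODE gene span given below. The windows of SCAP and NPC1 lie wholly inside it, so the bases before their GENCODE starts were not searched.

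INSIG1 was the member that differed most. After CTI-2 its level was 17.4, 14.2 and 14.9 CPM in the 3 libraries, against 62.4, 40.5 and 43.8 CPM in controls. The groups did not overlap, the CTI-2 libraries lay close together, and control 1 was the highest library. The means were 15.5 ± 1.72 CPM with CTI-2 and 48.9 ± 11.8 CPM in controls (SD, n = 3 each). The log2 fold change, CTI-2 minus control, was -1.59 (SE 0.18, 95% interval -1.94 to -1.23; edgeR quasi-likelihood adjusted p = 2.1e-07). It was the 44th lowest of the 9848 log2 fold changes tested. Without any one library it stayed between -1.69 and -1.39. INSIG1 lies on chr7:155297776-155310235 on the plus strand (GENCODE 29, GRCh38).

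INSIG2, the second INSIG gene, did not share this difference. It stood at 17.1, 24.3 and 22.2 CPM with CTI-2 and at 19.3, 22.1 and 19.6 CPM in controls. The groups overlapped, with both the lowest and the highest library among the CTI-2 ones. Its log2 fold change was 0.08 (95% interval -0.30 to 0.47; edgeR adjusted p = 0.838), so a change of either sign up to the ends of that interval is not distinguished from none.

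Because the INSIG genes were read in the same libraries, the split of their reads does not depend on library scaling. INSIG1 took 50.5, 36.8 and 40.2% of the reads of the pair in the CTI-2 libraries, against 76.4, 64.6 and 69.1% in controls. The mean share was 42.5 ± 7.09% with CTI-2 and 70.1 ± 5.95% in controls (SD, n = 3 each). The highest CTI-2 library had a 95% exact binomial (Clopper-Pearson) interval of 40.7 to 60.2% and the lowest control library one of 58.3 to 70.6%, so these nearest libraries overlap within counting error while the other pairs of libraries lie further apart. The intervals cover counting error only, since amplified cDNA reads without molecular identifiers are not independent molecules.

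**Figure D1:**
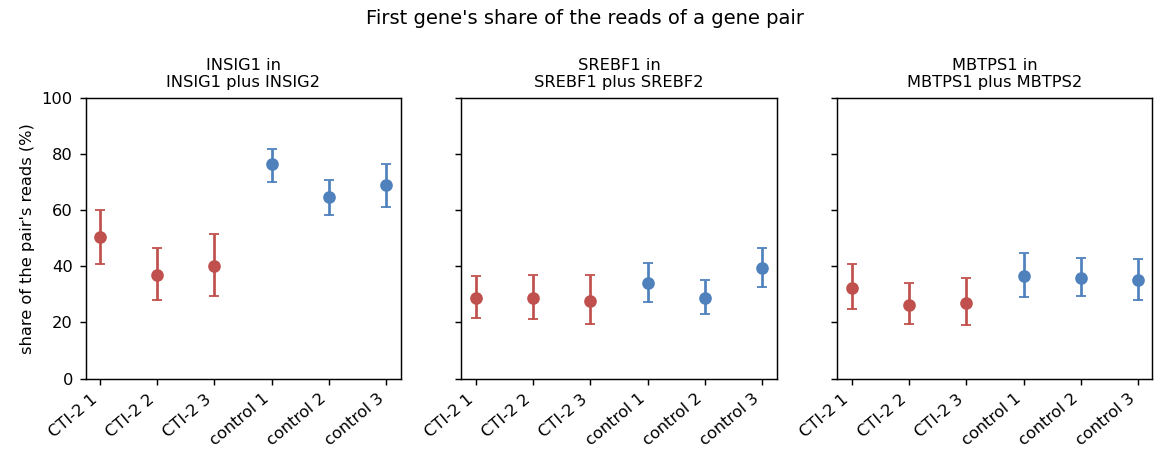
Share of reads taken by the first gene of each pair, in percent, with 95% exact binomial intervals, for the 3 CTI-2 libraries (red) and the 3 control libraries (blue). The INSIG1 share was 36.8 to 50.5% with CTI-2 and 64.6 to 76.4% in controls, while the SREBF1 and MBTPS1 shares differed less.

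SCAP, the escort that INSIG proteins hold back, was at 39.6, 34.0 and 31.2 CPM with CTI-2 and at 42.0, 34.6 and 42.1 CPM in controls. The groups overlapped, and the log2 fold change was -0.11 (95% interval -0.41 to 0.19; edgeR adjusted p = 0.710). The gene lies on chr3:47413694-47477126 on the minus strand.

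Both SREBF genes had lower values with CTI-2 in every library. SREBF1 was at 14.3, 13.1 and 13.6 CPM with CTI-2, against 25.0, 16.5 and 34.9 CPM in controls. The CTI-2 libraries were nearly level, whereas controls 2 and 3 differed more from each other than control 2 did from any CTI-2 library. The means were 13.7 ± 0.567 CPM with CTI-2 and 25.5 ± 9.19 CPM in controls (SD, n = 3 each), and the log2 fold change was -0.80 (95% interval -1.23 to -0.36, SE 0.22; edgeR adjusted p = 0.0175). Its place past the threshold of 0.05 rested on single libraries: the adjusted p was 0.153 without control 3, where the log2 fold change was -0.55, and 0.0576 without CTI-2 library 2. It was 0.0520 in DESeq2 and 0.0545 in limma-voom. SREBF1 lies on chr17:17810399-17837002 on the minus strand and overlaps RAI1 on the other strand, which had 9 to 12 counts with CTI-2 and 13 to 21 in controls. No source used here says whether reads were counted by strand.

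SREBF2 was at 35.5, 32.7 and 35.8 CPM with CTI-2, against 48.5, 41.2 and 53.6 CPM in controls. The groups did not overlap, but the difference was small and did not pass: the log2 fold change was -0.40 (95% interval -0.69 to -0.11, SE 0.14; edgeR adjusted p = 0.0761). Without control 2 it passed, with a log2 fold change of -0.46 and an adjusted p of 0.0372. Of the reads of the SREBF pair, SREBF1 took 28.7, 28.7 and 27.5% with CTI-2 and 34.0, 28.6 and 39.4% in controls. Control 2 lay inside the range of the CTI-2 libraries, so the split between the SREBF genes was not separated by group. SREBF2 lies on chr22:41833079-41907308 on the plus strand.

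Neither protease gene passed. MBTPS1 was at 14.3, 13.1 and 14.5 CPM with CTI-2 and at 21.2, 19.3 and 26.0 CPM in controls, with no overlap. Its log2 fold change was -0.60 (SE 0.20, 95% interval -0.999 to -0.20), and its edgeR adjusted p of 0.0501 lay just outside the threshold. Other settings put it on either side: without control 2 the adjusted p was 0.0362 and without CTI-2 library 2 it was 0.177. MBTPS2, on chrX:21839636-21885424 on the plus strand, was at 29.8, 37.1 and 39.4 CPM with CTI-2 and at 36.6, 34.4 and 48.1 CPM in controls. These groups overlapped and the log2 fold change of MBTPS2 was -0.11 (95% interval -0.42 to 0.21; edgeR adjusted p = 0.722). It overlaps YY2 on the same strand, which had 0 to 1 counts with CTI-2 and 2 to 3 in controls. Of the reads of the protease pair, MBTPS1 took 32.4, 26.2 and 26.9% with CTI-2 and 36.7, 36.0 and 35.1% in controls. The shares did not overlap between the groups, but the counting intervals of single libraries did.

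The transport genes did not pass. NPC1, on chr18:23506184-23586898 on the minus strand, was at 31.1, 28.99 and 31.2 CPM with CTI-2, against 34.7, 34.6 and 63.4 CPM in controls. The groups did not overlap, but control 3 alone stood far above the other 5 libraries. The log2 fold change was -0.46 (95% interval -0.83 to -0.09; edgeR adjusted p = 0.113). It became -0.18 without control 3, with an adjusted p of 0.605, and -0.60 without control 1, with an adjusted p of 0.0498. NPC1 overlaps RMC1 on the other strand, which had 10 to 11 counts with CTI-2 and 11 to 17 in controls. STARD4, on chr5:111496033-111512590 on the minus strand, was at 12.4, 12.1 and 13.1 CPM with CTI-2 and at 18.5, 9.42 and 16.2 CPM in controls. Here control 2 was the lowest of all 6 libraries, the groups overlapped, and the log2 fold change was -0.13 (95% interval -0.61 to 0.34; edgeR adjusted p = 0.778). Without control 2 it was -0.37 (adjusted p = 0.278).

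**Figure D2:**
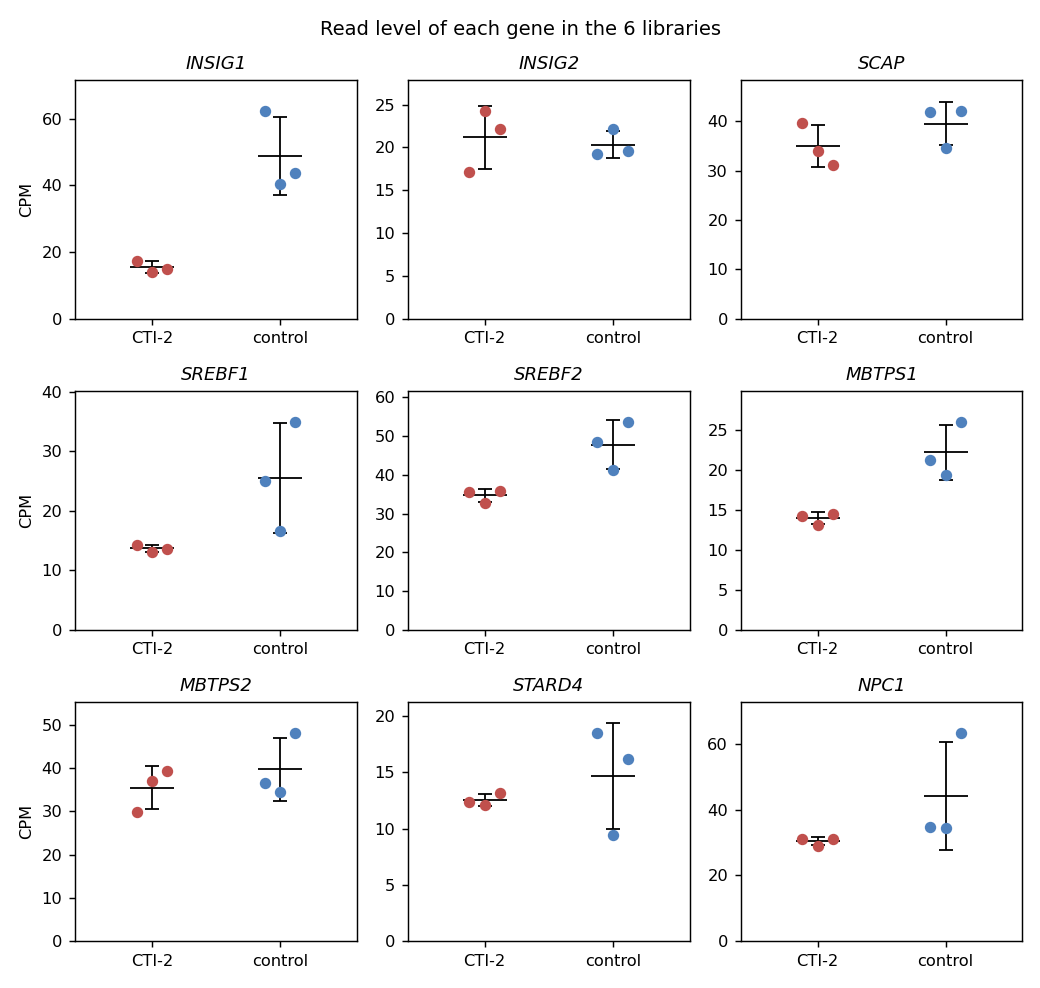
CPM of each of the 9 genes in the 3 CTI-2 libraries (red, left) and the 3 control libraries (blue, right), with the mean (horizontal mark) and SD (bar). INSIG1 lay at 14.2 to 17.4 CPM with CTI-2 and 40.5 to 62.4 CPM in controls. For NPC1 a control library stood apart at 63.4 CPM.

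Counted together, 2 of the 9 genes, INSIG1 and SREBF1, passed an adjusted p of 0.05, both lower with CTI-2, and none passed as higher. Of all tested genes 8.03% passed, 4.64% as lower and 3.39% as higher. Since this comparison was in view when the genes were chosen, nothing is read from the members' share. In 5 of the 9 (INSIG1, SREBF1, SREBF2, MBTPS1 and NPC1) the CTI-2 and control libraries did not overlap, all with CTI-2 lower, where 28.8% of tested genes did not overlap, 15.6% with CTI-2 lower. Of the 9 log2 fold changes 8 were negative, as were 5053 of all 9848, and the members' median was -0.40, against -0.01 for all tested genes. The members' median was -0.18 without control 3.

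The members that passed moved with the processing, except INSIG1, which passed in each of 17 alternatives. INSIG1 alone passed in DESeq2, where 6.51% of tested genes passed, in limma-voom (7.27%), without CTI-2 library 2 (4.50%), without control 3 (5.40%) and at a stricter adjusted p of 0.01 (3.11%). INSIG1 and SREBF1 passed without CTI-2 library 1 (4.92%), without CTI-2 library 3 (3.82%), with library totals (6.93%), with no filter on low counts (5.39%) and after removal of a trend with transcript length (8.27%). MBTPS1 joined them with DESeq2 size factors (8.19%), with at least 20 counts in 3 libraries (9.02%), with limma on log2(CPM + 1) (7.40%) or log2(CPM + 0.5) (7.32%) and with a replicate block (9.57%). NPC1 joined INSIG1 and SREBF1 without control 1 (4.41%), and SREBF2 and MBTPS1 joined them without control 2 (16.1%).

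**Figure D3:**
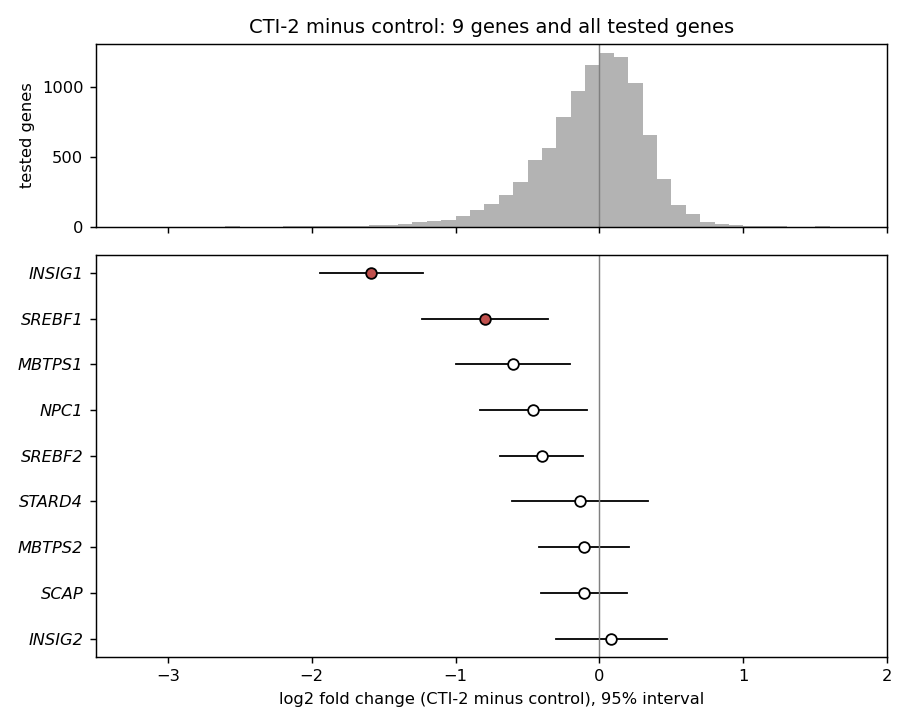
Log2 fold change (CTI-2 minus control) with 95% interval for the 9 genes, filled where the adjusted p was under 0.05, below a histogram of the log2 fold changes of all 9848 tested genes. INSIG1 at -1.59 and SREBF1 at -0.80 are filled. The intervals of INSIG2, SCAP, MBTPS2 and STARD4 cross 0.

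**Figure D4:**
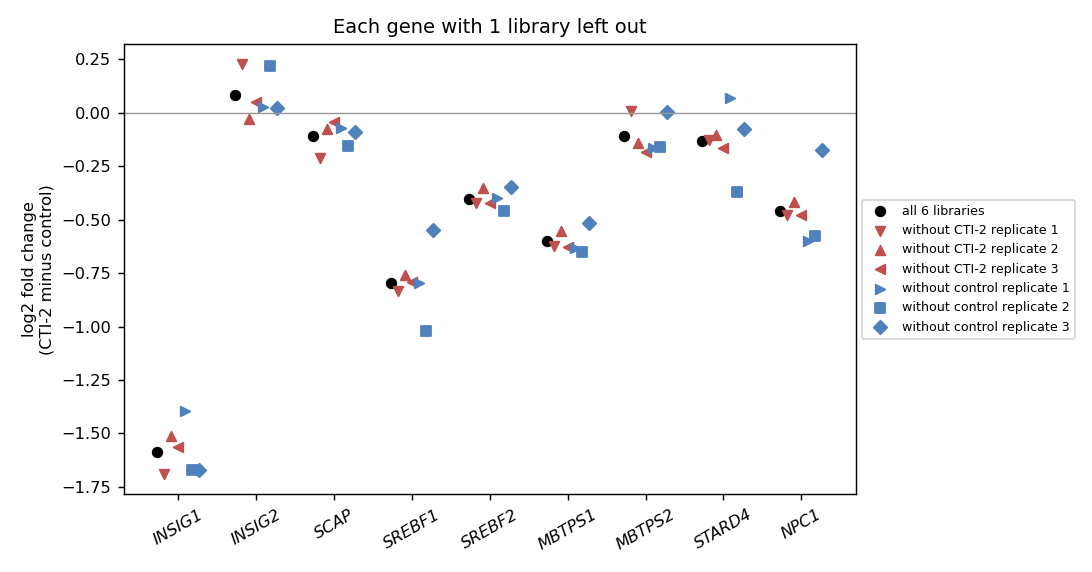
Log2 fold change (CTI-2 minus control) of each gene with all 6 libraries (black) and with a single library left out, CTI-2 libraries in red and controls in blue. INSIG1 stayed between -1.69 and -1.39, SREBF1 moved between -1.02 and -0.55 and NPC1 between -0.60 and -0.18, in each case with control 3 giving the value nearest to 0 for SREBF1 and NPC1.

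The spread among libraries was unequal between the groups. For counts shared out by library total, the chi-square per degree of freedom among the CTI-2 libraries was 0.0535 to 2.01 over the 9 genes, and 1.00 in the median of all tested genes. Among controls it was 16.9 for NPC1, 10.5 for SREBF1, 8.39 for INSIG1 and 5.26 for STARD4, against a median of 1.67 over all tested genes. INSIG2, at 0.399, was the steadiest of the 9 among controls. The wide controls of NPC1 and SREBF1 both held a high control 3, and that of INSIG1 a high control 1. Transcript length also varied among the members, with a median annotated length of 1467 bases for STARD4 and up to 5302.5 bases for SREBF2, against 2484.75 bases for tested genes. After removal of that trend in each library, INSIG1 (-1.56) and SREBF1 (-0.73) passed as before, and the members' median was -0.31.

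By profile over the 6 libraries, on the log2(CPM + 1) scale, the 5 genes most like INSIG1 among 6890 compared included NOM1, NSD3, TLCD1 and LHPP, with Pearson r over the 5 of 0.990 to 0.995. NOM1 encodes a nucleolar protein, and was at 19.3, 17.2 and 15.8 CPM with CTI-2 and at 52.0, 35.1 and 36.2 CPM in controls. Like INSIG1 it was highest in control 1. These r are over 6 libraries that share the group difference and are a description only. Among the other members the highest r with INSIG1 were those of SREBF2 (0.900, rank 272), MBTPS1 (0.899, rank 275) and SREBF1 (0.810, rank 709), and INSIG2 had the lowest, at -0.30.

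The rest of the pathway was described with 8 lists of other genes, 101 in all, of which 90 had enough reads to be tested. Over these lists 15 genes fell, 1 rose and 74 did not pass, beside 8.03% of all tested genes that passed. The count was 6 to 22 when 1 library was left out, lowest without CTI-2 library 3 and highest without control 2. Without control 2, 17 of these genes passed as lower and 5 as higher. Over all tested genes that fit gave 653 lower and 957 higher, against 457 lower and 334 higher with all 6 libraries. The lists were chosen with earlier results of these data known.

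Of 19 tested sterol synthesis genes, the output of SREBP-2, 4 fell, none rose and 15 did not pass, with 17 negative log2 fold changes and a median of -0.36. Enzyme genes that fell included IDI1 (-0.54, edgeR adjusted p = 0.0079), DHCR7 (-0.44, adjusted p = 0.0097) and LSS (-0.47, adjusted p = 0.028). LSS missed in DESeq2, in limma-voom and without control 1, control 3 or CTI-2 library 3 (adjusted p at most 0.182). IDI1 missed without CTI-2 library 3 (0.0624) and DHCR7 without CTI-2 library 1 or 2 (0.0685 at most). HMGCS1, a synthase gene early in the mevalonate pathway, had values of 16.2, 12.8 and 14.9 CPM with CTI-2 and 20.8, 18.1 and 19.6 CPM in controls, and did not pass (log2 fold change -0.36, adjusted p = 0.272).

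Of 12 tested fatty acid synthesis genes, associated with SREBP-1, 2 fell and 10 did not pass, with a median of -0.18. FASN, the fatty acid synthase gene, was at 8.56, 11.5 and 5.89 CPM with CTI-2, against 47.0, 33.8 and 32.3 CPM in controls (log2 fold change -2.04, SE 0.21, edgeR adjusted p = 7.5e-08). SCD, the stearoyl-CoA desaturase gene, fell by 0.76 on the log2 scale (edgeR adjusted p = 0.00057). Both passed whichever library was left out.

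The list of retention and protein degradation in the endoplasmic reticulum included genes that act on INSIG proteins. Of its 14 tested genes 5 fell and none rose, with a median of -0.20. These were the most calls of any list in edgeR, where 4.64% of all tested genes passed as lower. DESeq2 called 4 of this list and limma-voom 3, against 3 and 3 of the sterol synthesis list. PGRMC1, a haem-binding membrane protein gene, was at 19.98, 19.5 and 17.7 CPM with CTI-2, against 67.4, 42.8 and 33.6 CPM in controls (-1.27 on the log2 scale, SE 0.20; edgeR adjusted p = 0.00060). The controls again spread more widely than the CTI-2 libraries, with control 1 the highest. PGRMC1 passed whichever library was left out. VCP, which encodes the ATPase that pulls ubiquitinated proteins out of the membrane, fell by 1.03, and the ubiquitin ligase gene RNF145 by 0.89 on the log2 scale (edgeR adjusted p = 0.0066 for VCP and 0.0060 for RNF145). VCP missed without control 2 or control 3 (adjusted p at most 0.0691) and RNF145 without CTI-2 library 3 (adjusted p = 0.0552). MARCHF6 (MARCH6 in the table), another ligase gene of that membrane, fell by 0.41 on the log2 scale (edgeR adjusted p = 0.030) but among the fits that left a library out it passed only without control 2, and it missed with library totals and in each limma fit. TMEM97, the remaining call, named after its value was seen, has been described as a binding partner of NPC1 and fell by 0.44 on the log2 scale (edgeR adjusted p = 0.042). It missed in DESeq2, in limma-voom, without control 2 and without any single CTI-2 library (adjusted p at most 0.178).

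Of 12 tested genes of the COPII coat, which carries SCAP and SREBP out of the endoplasmic reticulum, 2 fell, 1 rose and 9 did not pass, with a median of 0.07. SAR1A, the GTPase gene that starts the coat, was at 169, 167 and 189 CPM with CTI-2, against 122, 138 and 126 CPM in controls, and rose by 0.48 on the log2 scale (edgeR adjusted p = 0.0066). The cargo adaptor genes SEC24D and SEC24A fell by 1.23 and 0.69 (edgeR adjusted p = 0.018 for SEC24D and 0.046 for SEC24A). SEC24D had 1.81 to 6.07 CPM with CTI-2 and 8.14 to 11.6 CPM in controls, on 4 to 32 counts per library. DESeq2 gave SEC24D no adjusted p and called 1 gene of this list, SAR1A. Leaving out a library ended the call of SAR1A where control 1 or CTI-2 library 3 was absent, that of SEC24D without control 1 or without CTI-2 library 1 or 3, and that of SEC24A without any library but control 2. SEC24A also missed with library totals, with no filter on low counts, in DESeq2, in limma-voom and with the length trend removed (adjusted p 0.0502 to 0.140).

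None of 7 tested genes of other proteins cut by site-1 protease passed (median -0.16). The best read of them, ATF6, an endoplasmic reticulum stress sensor, was at 160, 154 and 132 CPM with CTI-2 and at 125, 131 and 156 CPM in controls. At an unadjusted p under 0.05, edgeR's quasi-likelihood test gave 0 of these 7 genes, beside 2358 of all 9848 tested genes. By the same measure it gave 12 of 19 sterol synthesis genes, 3 of 12 fatty acid synthesis genes and 5 of 12 COPII genes. It gave 6 of 14 genes of retention and degradation, 7 of 11 of lipoprotein uptake and lysosomal release, and 5 of the 9 members.

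Of 11 tested genes of lipoprotein uptake and lysosomal release, 2 fell and 9 did not pass, with a median of -0.40. SCARB1, the HDL receptor gene, fell by 0.49 on the log2 scale (edgeR adjusted p = 0.010), and LRPAP1, a receptor chaperone gene, by 0.40 (adjusted p = 0.026). SCARB1 missed when control 1 or the third CTI-2 library was left out (adjusted p at most 0.0675), and LRPAP1 without control 3 or any single CTI-2 library and with the length trend removed (-0.25, adjusted p = 0.198). For NPC2, the soluble partner of NPC1 in lysosomal cholesterol export, the log2 fold change was 0.20, opposite in sign to that of NPC1 (adjusted p = 0.422). Without control 2 it was 0.43 (adjusted p = 0.0454).

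None of 12 tested genes of intracellular cholesterol transport and esterification passed, with a median of 0.08, and 0 of them had an unadjusted p under 0.05 in edgeR. SOAT1, which esterifies cholesterol, was at 102, 111 and 107 CPM with CTI-2 and at 111, 103 and 146 CPM in controls. Of 9 listed genes of the LXR receptors and of cholesterol efflux only 3 had enough reads to be tested. None passed, with a median of -0.49. Beside 2358 of all 9848 tested genes, 2 of these 3 had an unadjusted p under 0.05 in edgeR. These were NR1H2, the second LXR gene (log2 fold change -0.49, edgeR adjusted p = 0.124), and LPCAT3, a lysophospholipid acyltransferase gene (-0.75, edgeR adjusted p = 0.171), both named after their values were seen. Neither DESeq2 nor limma-voom called a gene of these lists or of the site-1 protease list. The LXR gene NR1H3 was at 27.9, 24.6 and 27.6 CPM with CTI-2 and at 27.3, 26.5 and 33.2 CPM in controls. The efflux genes ABCA1, ABCG1 and APOE had at most 1 count in any library.

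**Figure D5:**
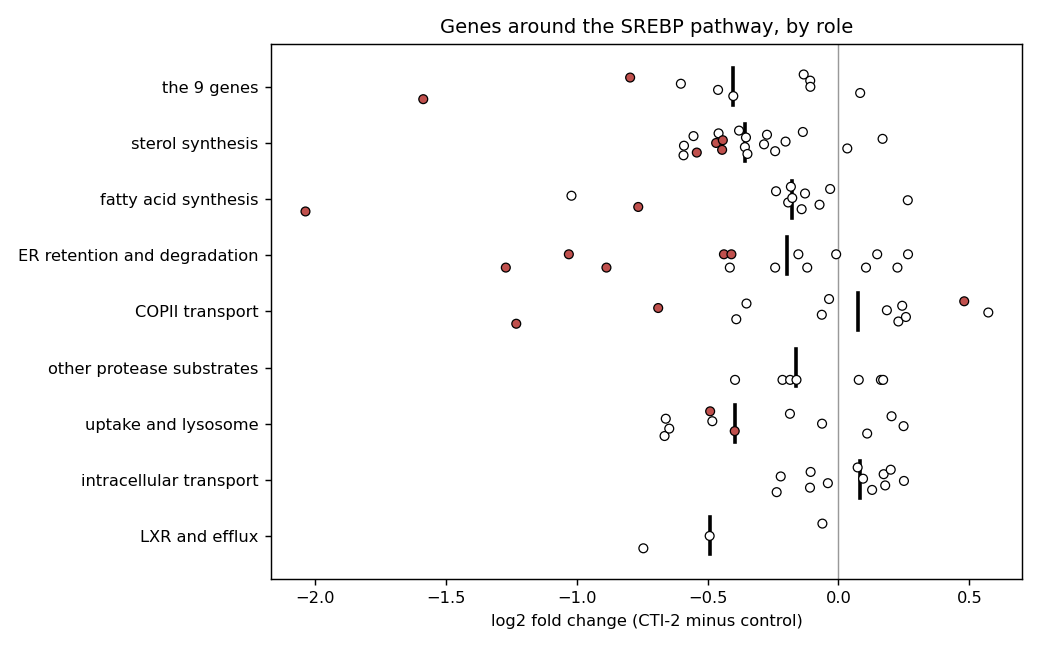
Log2 fold change (CTI-2 minus control) of the tested genes of each list, filled where the adjusted p was under 0.05, with the list median as a bar. The medians of the 9 genes (-0.40) and of sterol synthesis (-0.36) lie below 0, while those of COPII transport (0.07) and intracellular transport (0.08) lie above it.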

How the data were processed

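RNA was measured in 3 CTI-2 and 3 control libraries of MDA-MB-231 cells, grouped by the labels. Per the labels' protocols, RNA was taken in Trizol and cDNA-PCR libraries were read on the Oxford Nanopore platform. The submitters' processing notes name minimap2. The sources used here do not give its version, the genome build, annotation, read counter, use of strand or filters. Gene counts were deposited as whole numbers in 1 column per library. The authors also deposited a table of CPM, which equalled count over library total times 1000000 to within 4.4e-11. The deposited gene length equalled the GENCODE 29 span, end minus start, for 80.6% of the 14408 Ensembl genes, and gene coordinates are given only where it did.

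Counts were filtered with filterByExpr of edgeR 4.0.16 (R 4.3.3), which left 9848 genes. After TMM scaling, CTI-2 minus control was tested by its quasi-likelihood method, with Benjamini-Hochberg adjustment over all tested genes and a threshold of 0.05. SE and 95% intervals come from that test's statistic. The fit was tested on simulated counts. The genes, lists and tests were chosen with earlier results of these data known. Named list genes were up to 4 called genes of smallest adjusted p per list, or else the best-read gene, plus a few chosen pathway genes, among them HMGCS1 and NPC2; some genes that this rule names are not reported here. Alternatives were other scalings, filters, DESeq2 1.42.0, limma 3.58.1 (voom, or log2(CPM + 1) and log2(CPM + 0.5)), a replicate block, each library left out, an adjusted p of 0.01 and removal, per library, of a lowess trend on transcript length (span 0.3), a length being known for 93.6% of tested genes. No pair of same-group libraries was a repeat deposit, since their counts differed beyond sampling noise, with 1.78 to 6.92 as the chi-square per degree of freedom.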

Additional observations from a re-analysis of the deposited data

How the results depend on the processing

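INSIG1 passed under all 17 alternatives (log2 fold change -1.69 to -1.39). The number of the 9 genes that passed, 2, was 1 in DESeq2, in limma-voom and at an adjusted p of 0.01, and 1 to 4 when a library was left out. The median log2 fold change of the 9 genes was -0.46 to -0.18 when a library was left out and kept its sign throughout. All genes called numbered 791, against 467 in DESeq2, 306 at an adjusted p of 0.01 and 400 to 1610 with a library left out. Other pathway genes called numbered 16, against 8 at an adjusted p of 0.01 and 6 to 22 with a library left out. Signs reversed only among genes that did not pass. INSIG2 ranged over -0.029 to 0.23, STARD4 over -0.37 to 0.067, MBTPS2 over -0.18 to 0.0078, SOAT1 over -0.17 to 0.017 and NR1H3 over -0.11 to 0.0041 when a library was left out, and SOAT1 was 0.0057 with the length trend removed. The cause of these moves was not tested. The replicate numbers gave no sign of pairing the libraries. Deviations of same-numbered libraries correlated at -0.049, 0.0069 and -0.12, and of 6 libraries 1 correlated best with its own number. With 3 libraries per group these values cannot show that no pairing exists. With the replicate number as a block, 3 of the 9 genes (INSIG1, SREBF1 and MBTPS1), 942 genes in all and 18 other pathway genes passed. SCAP, MBTPS2, INSIG2 and STARD4 rest on 29 to 136 counts per library, and what change this depth could show was not tested.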

Other observations

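Promoters of the sterol synthesis genes were searched for the same letters. Of the 15 with a promoter in the RefSeq table, 12 (80.0%) held CCAAT, against 34.6% of all promoters, 14 (93.3%) held GGGCGG, against 45.0%, 2 (13.3%) held CACGTG, against 7.26%, and 0 held TCACNCCAC, against 1.13%. Each gene of the list was counted once, by 1 promoter, while the share over all promoters counts every promoter held. No test was made, and promoters differ in base composition, which was not measured for these 15. The median GC content was 58.7% over all promoters, and the promoters of the 9 genes described above had 58.3 to 78.3%.

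Other genes close to INSIG1 in profile were also lower in every CTI-2 library than in any control, as were 15.6% of tested genes. They were picked for their correlation with INSIG1 over these same libraries, where its groups did not overlap. Their lower values therefore follow from that choice, and the values below are a description only. NSD3, a histone methyltransferase gene, was at 14.3, 14.2 and 13.6 CPM with CTI-2, against 23.5, 19.6 and 20.9 CPM in controls, and did not pass in edgeR (log2 fold change -0.55, edgeR adjusted p = 0.0747). TLCD1, a membrane protein gene, was at 9.83, 8.43 and 9.06 CPM with CTI-2, against 18.5, 15.8 and 17.0 CPM in controls (-0.85, edgeR adjusted p = 0.014). LHPP, a phosphatase gene, had a log2 fold change of -0.76 (edgeR adjusted p = 0.028). With a library left out, TLCD1 passed in 5 of 6 fits and LHPP in 2.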
